A study of Saccharomyces cerevisiae with 14 samples.

Results

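The late stage of a nitrogen upshift in budding yeast (Saccharomyces cerevisiae) is described here, from 24 min to 56 and 120 min after glutamine was given to cells growing on proline. The samples are 1 array of 56 min and 1 of 120 min, both of experiment BY008, with the 24 min array of BY008 as their reference and the 24 min arrays of BY003 and BY012 as the spread. These are 5 of the 14 arrays of the series. All arrays hold the wild-type strain YSBN6 with no other allele, grown in a stirred batch fermentor at 30 °C and pH 5 in minimal medium with 20 g/L glucose and 200 mg/L proline. Glutamine was added at once to 400 mg/L at an OD600 of around 1, so every array but those of -10 min is of cells given both proline and glutamine. The -10 min arrays are the proline state before the pulse, in 3 experiments, and BY008 was also sampled at 3, 7, 10 and 14 min. The labels used here give no cell density, growth rate or glutamine level at the late times, and the 56 and 120 min cultures come from 1 experiment.

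Yeast sorts nitrogen sources by quality. Glutamine is a preferred source and proline a poor one, and glutamine raises the activity of the kinase complex TORC1, which promotes ribosome production and holds back stress, autophagy and starvation genes. On a preferred source the GATA activators Gln3 and Gat1 are kept inactive, which lowers permeases and enzymes for poor sources, a control called nitrogen catabolite repression. Amino acids outside the cell are also read by the SPS sensor, which turns on a set of amino acid permeases.

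A value is the log2 of an array's intensity for a gene, and a late difference is the value at 56 or 120 min minus that at 24 min in BY008. A gene was counted as higher or lower late when both late differences were at least 1 in size (2-fold) with the same sign and both late values lay outside the range of the 3 arrays of 24 min. Each late time has 1 array, so this count carries no test. A test across all genes used limma, with 1 mean per time over all 14 arrays and the mean of the late times against the 3 arrays of 24 min. It assumes that the lone arrays vary like the replicated ones and that all arrays are independent. Both late arrays are of BY008 and the 24 min arrays are of 3 experiments, so without a term for experiment the test does not fully separate late time from experiment. Called genes (adjusted p under 0.05) also have 1 sign at both late times against the mean of the 3 arrays of 24 min. The late differences printed below are against BY008 alone, so for a called gene they can differ in sign. GAP1, called higher with -0.05 and 1.44, is an example. Errors of late differences are the standard errors of this test, for 2 late arrays against 3 of 24 min, and adjusted p values are its own. The design text calls the 3 experiments biological replicates. Below, "rose" and "fell" are used for genes that this test called higher or lower late, and for first moves as defined further on.

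Of 5449 genes, 273 were higher late (5.01%) and 46 were lower (0.844%). With array medians subtracted the split was 214 to 70, and with quantile normalization 164 to 85. The limma test called 898 genes higher (16.5%) and 421 lower (7.73%), and with experiment as a replicate block 756 and 256. It called 242 of the 273 and 32 of the 46. The shares of all genes given here stand for comparison with each list count below. These calls depend on the arrays in the fit: without the 3 arrays of BY003 the test called 46 higher and 7 lower. The -10 min array of BY012 was at least 2-fold above every other array for 116 genes and below for 54. On the other arrays these numbers were 0 to 14 and 0 to 10. Without that array, a setting chosen after seeing the data, the test called 1057 and 545. What lowers the calls without BY003 was not tested. The genes just inside the 2-fold limit were BXI1 (1.16 at 56 min and 1.0024 at 120 min) and MCR1 (1.0025 and 1.38), and just outside it YJR142W (0.9996 and 1.12) and HUL4 (1.15 and 0.9988). On the lower side GFD2 (-1.0011 and -1.92) was inside the limit and IPI3 (-0.99 and -1.56) outside it.

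Some facts of the arrays touch these counts. The median log2 value over genes was 10.85 at 24 min in BY008, 10.96 at 56 min and 10.94 at 120 min, and the median late difference of all genes was 0.07 and 0.05. The low end differed more, with a 10th percentile over genes of 8.05 at 24 min, 8.44 at 56 min and 8.45 at 120 min. The median intensity over all probe sets was 178, 210 and 238 on these 3 arrays. How far such array-wide differences enter the counts was not tested beyond the normalizations above. The SD over the 3 arrays of 24 min had a median of 0.169 and a 90th percentile of 0.475. The 24 min array of BY008 was at least 2-fold above both other 24 min arrays for 27 genes and at least 2-fold below both for 48. The 120 min array had 78 probe sets of the other yeast on this array type (S. pombe) at least 2-fold above every other array, where the other arrays had 0 to 3. Their part in the results at 120 min was not tested. For that reason values at 56 min stand beside each value at 120 min.

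The late differences ran mostly against the first move. A first move is the difference of 24 from -10 min, taken from BY003 and BY012 with at least 2-fold and 1 sign in both, so it shares no array with the late differences. By this measure 606 genes rose first (11.1%) and 1311 fell first (24.1%). Of the 606, 518 (85.5%) lay below the 24 min array at both late times, against 33.6% of all genes, and their median late difference was -0.41 at 56 min and -0.88 at 120 min. Of the 1311, 1049 (80.0%) lay above it at both late times, against 42.9% of all genes, with medians of 0.58 and 0.89. At least 2-fold at both times, 253 of the 1311 had come back (19.3%, where 5.45% of all genes were 2-fold higher at both times) and 27 of the 606 (4.46%, where 0.918% were 2-fold lower). With quantile normalization these numbers were 143 and 61.

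The way back was not complete at 120 min. In BY008 the genes that rose first had a median of 2.11 above the -10 min array at 24 min, 1.72 at 56 min and 1.28 at 120 min. The genes that fell first had medians of -1.72, -1.15 and -0.85. Of the 273 genes higher late, 246 had fallen first, and 226 were still below the range of the 3 arrays of -10 min at 120 min, with 32 inside it and 15 above it. Of the 46 lower late, 25 had risen first, and at 120 min 18 were above that range, 5 inside it and 23 below it. The late rule uses the 24 min arrays of BY003 and BY012, so its overlap with the first move is not from separate arrays. Without that range requirement, 253 of the 297 genes 2-fold higher at both times had fallen first. Of the 50 genes 2-fold lower at both times, 27 had risen first.

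**Figure D1:**
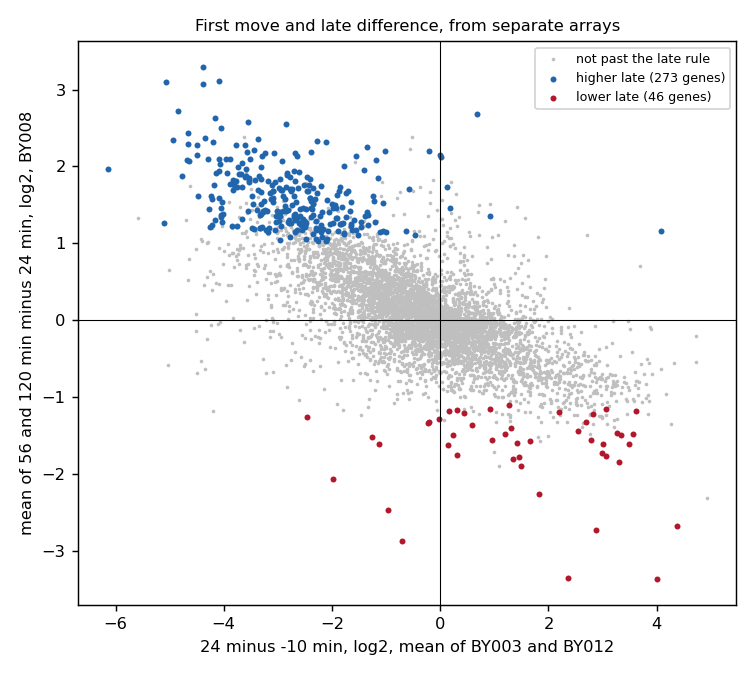
Each point is a gene, with its first move from -10 to 24 min (log2, mean of BY003 and BY012) on the horizontal axis and its late difference (log2, mean of 56 and 120 min minus 24 min in BY008) on the vertical axis; the axes share no array. Most of the 273 genes higher late (blue) lie on the left, where genes fell first, and the 46 lower late (red) lie on both sides of 0. The colours follow the late rule, which also uses the 24 min arrays of BY003 and BY012.

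Of the 12 genes with the largest late rises, all but RTA1, which is described further on, had fallen first. PNC1, for the nicotinamidase that makes nicotinic acid, stood at 9.57 in BY008, 10.10 in BY003 and 9.94 in BY012 at 24 min, at 12.62 at 56 min and at 12.76 at 120 min. Both late values lay above all 3 arrays of 24 min and below the 13.76 of the proline state in BY008. PNC1 was thus 8.25-fold and 9.09-fold above its 24 min array (limma 2.82 ± 0.22, SE, adjusted p = 0.00047). AMS1, for the vacuolar mannosidase, was at 7.07, 7.60 and 7.15 at 24 min, then 9.57 and 10.01. LSP1, for a core protein of the eisosomes under the plasma membrane, was at 10.80, 10.81 and 10.70 at 24 min, then 13.12 and 13.02. In both genes the late values were above every 24 min array, and both rose by limma (adjusted p = 0.0015 and 0.00047). PMC1, for the calcium pump of the vacuole, was higher by 2.49 and 2.65, YPI1, for a regulator of the phosphatase Glc7, by 2.26 and 2.74, IZH4, for a membrane protein of zinc homeostasis, by 2.26 and 2.40, and RMR1, needed for meiotic recombination, by 2.24 and 2.62. AIM17 (2.68 and 3.90), TDA10 (2.51 and 3.63), YHR138C (2.48 and 2.62) and YBR053C (2.34 and 2.92) complete the largest differences of genes that had fallen first.

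Of the 46 stress-induced genes, 16 were higher late and 0 lower, with medians of 0.76 and 1.36, and limma called 19 higher and 0 lower. This list holds 6 genes (CYC7, GPM2, EMI2, UBC8, AMS1 and RNY1) taken from earlier results of these data, so its counts are not independent evidence of a direction. EMI2, a gene related to hexokinases, was at 6.72, 7.24 and 6.74 at 24 min, at 8.62 at 56 min and at 11.01 at 120 min, so most of its rise came after 56 min (limma 2.91 ± 0.26, adjusted p = 0.00047). UBC8, for the ubiquitin-conjugating enzyme of fructose bisphosphatase breakdown, was higher by 2.13 and 2.55. CYC7, for the minor form of cytochrome c, was higher by 1.35 and 2.59. STF2, for a hydrophilin that helps cells survive drying, was higher by 1.56 and 3.04. HSP12, for the abundant membrane-protecting stress protein, was at 0.61 and 0.33 (limma adjusted p = 0.58). Its 56 min value of 13.74 lay just above the 13.13 to 13.67 of 24 min, and its 120 min value of 13.46 lay inside that range. MSN4, for an activator of stress genes, was higher by 1.61 and 1.78 (limma 1.69 ± 0.41, adjusted p = 0.017).

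Of the 18 glycogen and trehalose genes, 5 were higher and 0 lower, with medians of 0.92 and 1.75, and limma called 7 higher. The trehalose synthase complex moved together: its synthase TPS1 was at 10.09, 10.47 and 10.44 at 24 min, then 11.88 and 12.48. Its phosphatase TPS2 was higher by 1.27 and 1.19, and its regulatory subunits TPS3 by 1.36 and 1.99 and TSL1 by 1.15 and 2.84. All 4 rose by limma (adjusted p from 0.002 to 0.026), and TPS2 had an adjusted p of 0.059 with experiment as a replicate block. The main glycogen synthase GSY2 was higher by 1.47 and 2.73. Its paralog GSY1 was at 7.02, 7.90 and 7.88 at 24 min, at 7.41 at 56 min and at 10.03 at 120 min, so it overlapped the 24 min arrays at 56 min and stood above them at 120 min alone.

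Of the 20 heat shock chaperone genes, 4 were higher and 0 lower, with medians of 0.47 and 0.72, and limma called 11 higher and 0 lower. HSP104, for the disaggregase, was at 10.68, 10.89 and 10.77 at 24 min, at 12.52 at 56 min and at 13.20 at 120 min, close to the 13.45 of the proline state in BY008. Its late values were 3.57-fold and 5.72-fold above the 24 min array (limma 2.08 ± 0.25, adjusted p = 0.0017). The mitochondrial disaggregase HSP78 was higher by 1.60 and 1.52, the stress-induced Hsp90 gene HSP82 by 1.10 and 1.60 and the Hsp70 gene SSA1 by 1.09 and 1.48. The small heat shock protein gene HSP42, counted with the stress list, was higher by 1.5 and 3.06.

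**Figure D2:**
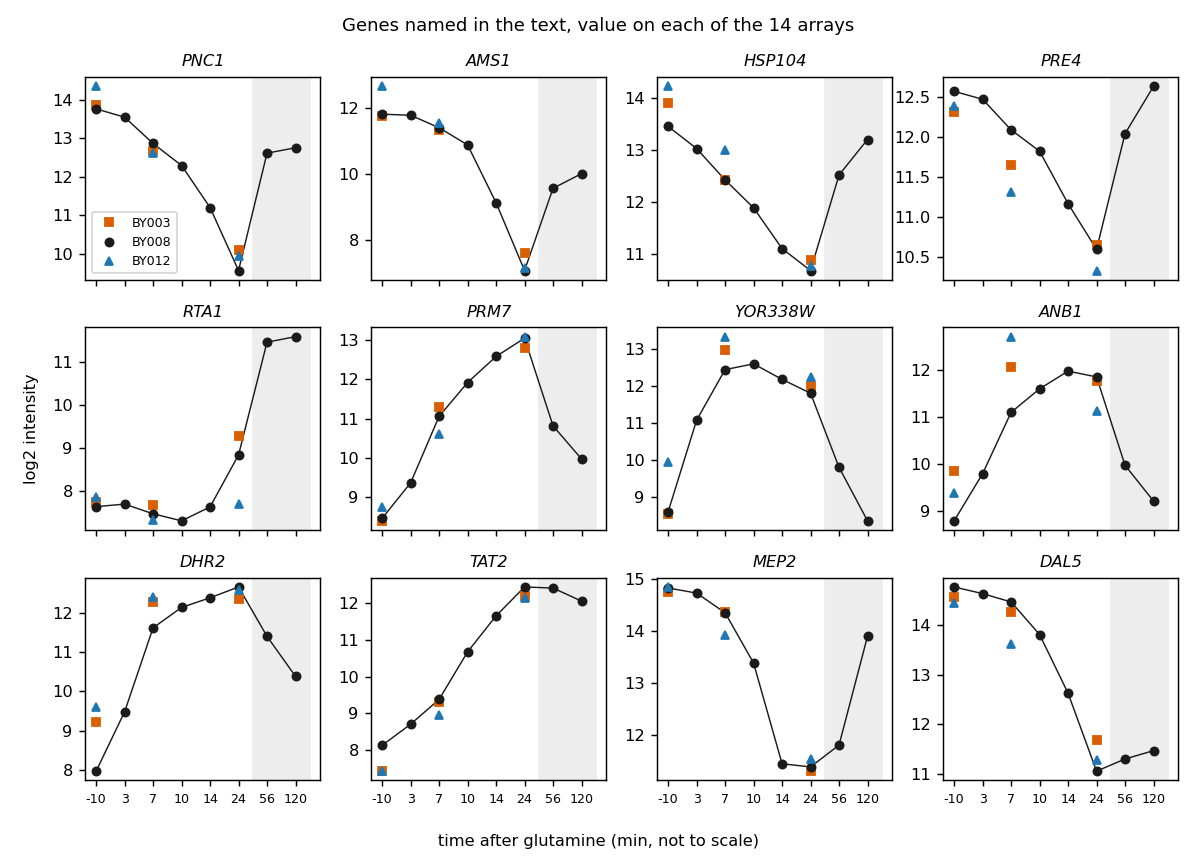
Log2 intensity of 12 genes on all 14 arrays against time (min, not to scale; the shaded area holds the late times), with BY008 as black circles joined by a line, BY003 as orange squares and BY012 as blue triangles. PNC1, AMS1, HSP104 and PRE4 lie above their 24 min values at both late times, PRM7, YOR338W, ANB1 and DHR2 lie below them, TAT2 stays within 0.38 of its 24 min value, and MEP2 is 2.52 above it at 120 min and 0.42 at 56 min.

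Genes for protein breakdown also turned upward. All 33 genes of the proteasome list, which holds the subunits of the proteasome and the gene of their activator Rpn4, lay above the 24 min array at both late times, where 42.9% of all genes did. The differences were modest, with medians of 0.71 and 1.06, so 5 of the 33 passed the late rule, while limma called 32 higher and 0 lower (28 with experiment as a replicate block, 0 without BY003). PRE4, for a subunit of the catalytic core, was at 10.60, 10.66 and 10.34 at 24 min, at 12.04 at 56 min and at 12.63 at 120 min. The 120 min value was close to the 12.57 of the proline state in BY008 (limma 1.80 ± 0.23, adjusted p = 0.0018). The core subunits PRE1 (1.19 and 1.79), PRE3 (1.14 and 1.93), PUP3 (1.12 and 2.05) and PRE8 (1.10 and 1.44) also passed the late rule. RPN4 itself was at 0.54 and 0.62 (adjusted p = 0.055), with values of 12.09 and 12.17 against 11.55, 10.94 and 10.96. Against the -10 min array of BY008 the list's median went from -1.48 at 24 min to -0.68 at 56 min and -0.31 at 120 min.

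Of the 25 autophagy genes, 8 were higher and 0 lower, with medians of 0.95 and 0.97, and limma called 15 higher and 0 lower. ATG33, which promotes mitophagy, was at 9.07, 8.75 and 8.58 at 24 min, then 10.76 and 10.85, above all 3 arrays (limma 2.0 ± 0.22, adjusted p = 0.0015). ATG13, for the TORC1-controlled regulator of the Atg1 kinase, was higher by 1.66 at both times, the scaffold gene ATG17 by 1.60 and 1.21, and the membrane protein gene ATG9 by 1.28 and 1.57. With the block ATG13 had an adjusted p of 0.051. Unlike the stress list, whose median went from 0.76 to 1.36, the autophagy list had nearly its whole late difference at 56 min; this contrast was not tested. Of the 10 vacuolar hydrolase genes 3 were higher and 0 lower by the late rule: AMS1, the ribonuclease gene RNY1 (1.31 and 2.45) and the protease gene PRB1 (1.61 and 1.55). Others of this list went the other way without passing the rule. These were the peptidase genes APE1 (-1.05 and -1.29) and CPS1 (-0.98 and -1.48), named after their values were seen.

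Genes for making ribosomes came down slowly. All 136 ribosome biogenesis genes lay below the 24 min array at both late times, where 33.6% of all genes did, with differences from -1.30 to -0.04 at 56 min and from -2.28 to -0.40 at 120 min. The medians were -0.49 and -1.07, so 2 of 136 were lower by the late rule. Limma called 66 lower and 0 higher, 26 with experiment as a replicate block, 29 without BY012 and 0 without BY003. Against the proline state of BY008 the median had been 3.15 at 24 min and was still 2.65 at 56 min and 2.06 at 120 min. The members that passed the late rule were the RNA helicase genes DHR2 and DBP2. DHR2 was at 12.66, 12.35 and 12.58 at 24 min, then 11.40 and 10.38, below all 3 arrays (limma -1.64 ± 0.43, adjusted p = 0.023, and 0.064 with the block). DBP2 was at 13.58, 12.78 and 13.28, then 12.28 and 12.53, with the larger difference at 56 min (adjusted p = 0.21). NSR1, for nucleolin, was at 13.86, 13.76 and 13.80, then 13.54 and 13.07 (adjusted p = 0.38), and its late differences were -0.32 and -0.79. The kinase gene RIO1, which had the second largest difference of the list at 120 min and is named after its values were seen, was at -0.53 and -2.14 (adjusted p = 0.019, and 0.06 with the block).

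Genes for tRNA modification and for RNA polymerases lay lower too, and ribosomal protein genes changed little. Of the 31 tRNA modification genes 1 was lower late, the methyltransferase gene TRM11 (-1.19 and -1.46), and 30 lay below the 24 min array at 56 min and 30 at 120 min, with medians of -0.48 and -0.85 (limma 15 lower, 0 higher, and 6 lower with the block, under which TRM11 had an adjusted p of 0.052). The 21 genes of RNA polymerases I and III had medians of -0.42 and -0.73, with 0 called by the late rule. Limma called 1 of the 21 lower, where 7.73% of all genes were, or 0 with the block and 6 with array medians subtracted. The 75 large subunit ribosomal protein genes had medians of -0.09 and 0.02 and the 53 small subunit genes -0.069 and -0.0029, and 0 of either were called by the late rule or by limma. TOD6, which encodes a repressor of ribosome production and had itself gone up with glutamine, was at 12.32, 12.19 and 12.35 at 24 min, at 11.90 at 56 min and at 10.65 at 120 min (adjusted p = 0.069).

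**Figure D3:**
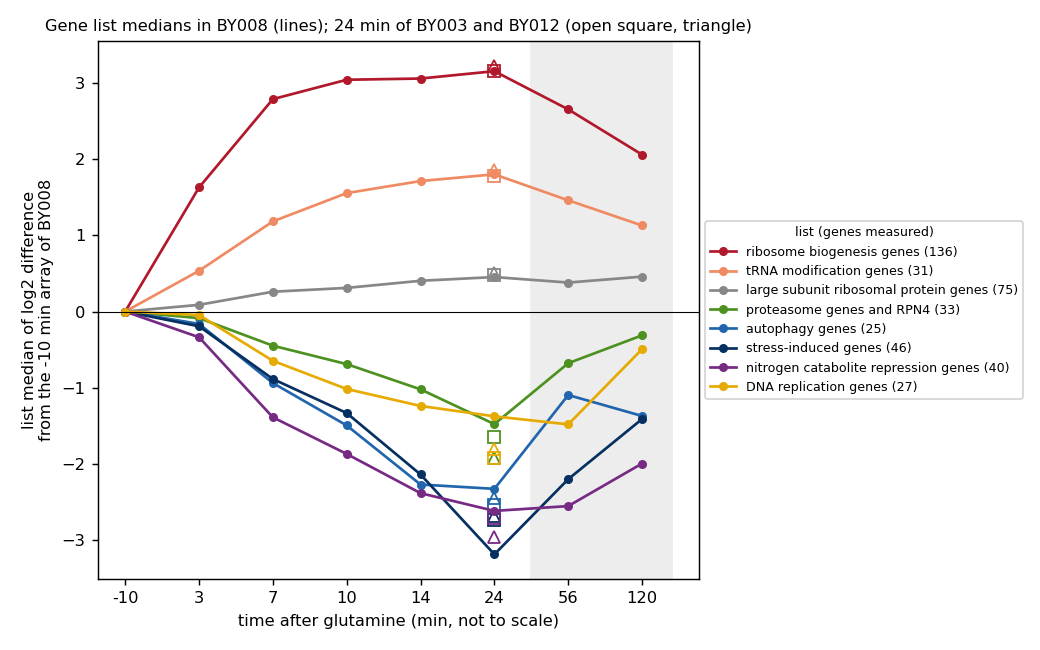
Median log2 difference of 8 gene lists from the -10 min array of BY008 (vertical axis) against time (min, not to scale), with lines for BY008 and open squares and triangles for the 24 min arrays of BY003 and BY012; the shaded area holds the late times. Ribosome biogenesis goes from 3.15 at 24 min to 2.06 at 120 min, the stress and proteasome lists climb toward 0, autophagy goes from -2.32 at 24 min to -1.09 at 56 min and -1.37 at 120 min, large subunit ribosomal proteins stay between 0.38 and 0.46 after 24 min, and DNA replication genes climb only after 56 min.

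The genes lower late were led by ones outside the lists of ribosome production. FRE4, for a ferric reductase, was at 11.28 in BY008, 10.53 in BY003 and 9.14 in BY012 at 24 min, then 8.31 and 7.56 (limma -2.38 ± 0.51, adjusted p = 0.012). PRM7, a gene known for its response to mating pheromone, was at 13.06, 12.80 and 13.10, then 10.81 and 9.97, still above the 8.45 of the proline state (limma -2.60 ± 0.22, adjusted p = 0.00047). YMR244W was at 10.05, 10.14 and 10.78, then 7.65 and 5.73, and YOR338W at 11.80, 11.99 and 12.25, then 9.80 and 8.36. YOR338W was already on its way down at 24 min, from 12.44, 12.98 and 13.33 at 7 min. In both, the 120 min value was below the proline state in BY008 (6.44 and 8.60). PCK1, for the gluconeogenic enzyme PEP carboxykinase, was at 12.50, 12.51 and 12.80, then 10.90 and 10.31. GUP2, for a membrane protein, was lower by -1.48 and -1.76 and had not moved first.

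Among the other lower genes, ANB1, for the hypoxic form of the translation factor eIF5A, was at 11.85, 11.75 and 11.12 at 24 min, then 9.97 and 9.21 (limma -1.98 ± 0.46, adjusted p = 0.015, and 0.054 with the block). ROX1, for the repressor of hypoxic genes, was also lower, by -1.24 and -1.95. FET4, for a low-affinity iron transporter, was lower by -1.26 and -2.19, and PDR12, for the exporter of weak acids, by -1.07 and -2.03. These 3 were named after their values were seen, and all 4 passed the limma test. Of the 23 iron uptake genes, 3 were lower and 0 higher: FRE4, the siderophore transporter gene ARN1 (-1.42 and -1.70, adjusted p = 0.058) and the reductase gene FRE3 (-1.06 and -1.36). The list's medians were -0.31 and -0.26.

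Some of the lower genes moved in opposite directions in BY003 and BY012 before 24 min. IDH2 (0.46 in BY003 and -0.91 in BY012) and GUP2 (0.41 and -0.14) were among them, and 5 others are described here. For 4 of these 5 the 24 min arrays were far apart (SD 1.18 for AGP3, 1.14 for JLP1, 1.30 for SEO1 and 0.89 for BDS1). AGP3, for an amino acid permease, was at 10.49, 9.19 and 11.55 at 24 min, then 7.66 and 7.57, and its -10 min arrays were at 10.08, 12.87 and 9.27 (BY008, BY003, BY012). JLP1, for a sulfonate dioxygenase, was at 10.24, 9.05 and 11.33, then 8.02 and 7.55. SEO1, for a permease, was at 9.27, 8.98 and 11.37, then 7.88 and 7.64. From -10 to 24 min these 3 went down in BY003 by -3.67 (AGP3), -4.37 (JLP1) and -4.81 (SEO1), and up in BY012 by 2.27, 2.45 and 2.28. The arylsulfatase gene BDS1 and the glutaredoxin gene GRX8, whose 24 min arrays had an SD of 0.34, likewise differed in sign between BY003 and BY012. Limma called none of these 5 (adjusted p = 0.079, 0.16, 0.24, 0.12 and 0.19); SEO1 and GRX8 were named after their values were seen. The sulfur amino acid list had late medians of 0.77 and 0.90, but its 24 min medians in BY003 and BY012 were 0.71 and 1.34 above BY008, so the late values lay within the spread of 24 min.

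Of the 10 permease genes under the SPS sensor 1 was higher and 2 lower late, with medians of -0.37 and -0.30. TAT2, for the tryptophan permease, was at 12.44, 12.18 and 12.14 at 24 min, then 12.41 and 12.05, against 8.13 in the proline state of BY008. The 56 min value lay within the 24 min arrays and the 120 min value just below them. BAP2, for the branched-chain permease, was at 11.85, 11.41 and 11.40, then 11.51 and 11.09, and AGP1, for a broad permease, at 13.46, 13.13 and 13.58, then 12.97 and 13.72. The glutamine permease gene GNP1 was at -0.83 and -0.22, and BAP3 fell by limma with -0.40 and -0.72 from an array already below the others (9.27 against 10.28 and 10.41; adjusted p = 0.017, and 0.059 with the block). TAT1, for the tyrosine permease, was lower by -1.94 and -1.61 (adjusted p = 0.06). The peptide transporter gene PTR2 went up instead, from 8.41, 8.70 and 8.74 to 9.79 and 11.29 (limma 1.93 ± 0.50, adjusted p = 0.022, and 0.067 with the block).

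Genes for using poor nitrogen sources stayed low at 56 min, and some were higher at 120 min. Of the 40 nitrogen catabolite repression genes 3 were higher late and 0 lower (PRB1, the activator gene CAT8 with 1.28 and 1.21, and RTS3 with 1.18 and 1.29), with medians of 0.25 and 0.81, and limma called 8 higher and 0 lower. Of all genes 5.01% were higher by the late rule and 16.5% by limma, so both higher counts were near the share of all genes. CAT8 had an adjusted p of 0.071, and 0.03 with the block. From 56 to 120 min 11 of the 40 were at least 2-fold higher and 0 at least 2-fold lower, where 3.19% and 3.16% of all genes were. MEP2, for the high-affinity ammonium permease, was at 11.38, 11.30 and 11.53 at 24 min, at 11.80 at 56 min and at 13.90 at 120 min, against 14.83 in the proline state (limma 1.45 ± 0.17, adjusted p = 0.0017). GAP1, for the general amino acid permease, was at 12.47, 12.14 and 12.06, then 12.42 and 13.91, so 56 min lay within the 24 min arrays and 120 min above them (limma 0.94 ± 0.26, adjusted p = 0.029, and 0.071 with the block). The allantoin genes DAL3 and DAL7 and the permease genes MEP1 and CAN1, named after their values were seen, stood at 0.05, 0.26, 0.51 and 0.79 at 56 min and at 2.26, 1.99, 1.97 and 1.78 at 120 min. DAL3 had an adjusted p of 0.049, and 0.11 with the block.

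Other genes of nitrogen use differed among themselves. The proline oxidase gene PUT1 was at 12.35, 12.02 and 11.74 at 24 min, then 12.21 and 11.65, against 14.69 in the proline state. DAL5, for the allantoate permease, was at 11.05, 11.69 and 11.28, then 11.30 and 11.47, within the 24 min arrays at both times and below the 14.77 of the proline state. The GATA repressor gene DAL80 was at -0.19 and 0.74, the glutamate dehydrogenase gene GDH2 at 0.36 at both times, the proline permease gene PUT4 at -0.02 and 0.68, and the dehydrogenase gene PUT2 at 0.25 and 0.05. GAT1, for the GATA activator, was at 0.34 and 0.95 (adjusted p = 0.13), with a 120 min value of 12.50 above the 24 min maximum of 11.97. Of the 4 GABA use genes the dehydrogenase gene UGA2 was higher (1.23 and 1.39, limma adjusted p = 0.018). The others, named after their values were seen, were UGA1 (0.60 and 1.38), UGA4 (-0.24 and 1.24) and UGA3 (0.23 and -0.65). GCN4, for the master activator of amino acid biosynthesis, was at -0.01 and -0.03.

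Energy genes were mixed. Of the 15 genes of the TCA cycle 3 were higher and 1 lower by the late rule, with medians of 0.70 and 1.04, and limma called 7 higher and 0 lower. The citrate synthase gene CIT1 was at 10.18, 10.96 and 11.14 at 24 min, then 11.85 and 12.17, the succinate dehydrogenase gene SDH4 was higher by 1.45 and 1.54, and the ketoglutarate dehydrogenase gene KGD2 by 1.07 and 1.41. The isocitrate dehydrogenase gene IDH2 went the other way, from 12.27, 13.35 and 12.75 to 10.62 and 11.26 (adjusted p = 0.058), and its partner subunit IDH1 was at -1.10 and -0.76 (adjusted p = 0.12). Of the hexose transporter genes the low-glucose sensor SNF3 was higher by 1.62 and 1.74. HXT4 was at 11.63, 12.30 and 11.96, then 9.84 and 10.79, below all 3 arrays at both times and lowest at 56 min (limma -1.65 ± 0.33, adjusted p = 0.009). HXT2 was at 0.43 and 1.15 (adjusted p = 0.018, and 0.061 with the block). PDC6, for the minor pyruvate decarboxylase, was lower by -1.84 and -2.28.

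Most genes of DNA replication were near their 24 min values at 56 min and higher at 120 min. None of the 27 passed the late rule at both times, limma called 4 higher and 0 lower, a smaller share than the 16.5% of all genes called higher. That was 2 with the block, 1 with array medians subtracted and 0 without BY003 or without BY012. From 56 to 120 min 13 of the 27 were at least 2-fold higher, where 3.19% of all genes were. The list's medians were -0.11 at 56 min and 0.91 at 120 min. POL30, for the sliding clamp PCNA, was at 10.78, 9.94 and 9.54 at 24 min, at 10.77 at 56 min and at 12.83 at 120 min, near the 13.42 of the proline state in BY008 (adjusted p = 0.08). CDC21, for thymidylate synthase, was at -0.11 and 2.14, RFA1, for a subunit of the single-strand binding protein, at 0.15 and 2.06, and RNR1, for the large subunit of ribonucleotide reductase, at -0.75 and 1.60. The helicase subunit genes MCM2 to MCM7 did not share this: their differences at 120 min ran from -0.33 (MCM6) to 0.41 (MCM4). Members of this list and the next are named after their values were seen. At 24 min many of these genes were lower in BY003 and BY012 than in BY008, and in bulk RNA more cells in a phase and more RNA per cell cannot be told apart.

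The Start genes, which commit cells to a new cycle, split in a like way. Of 15, 0 passed the late rule, and limma called 2 higher and 1 lower, where 16.5% and 7.73% of all genes were. Both counts were thus near the share of all genes. With the block they were 1 and 0, and CLN1 had an adjusted p of 0.097. SWI4, for the DNA-binding subunit of the factor SBF, was at 8.33, 7.64 and 7.12 at 24 min, at 9.10 at 56 min and at 10.61 at 120 min (limma 2.16 ± 0.36, adjusted p = 0.0049). The G1 cyclin genes CLN1 (-0.33 and 1.22) and CLN2 (-0.27 and 1.67) were below the 24 min array of BY008 at 56 min and above it at 120 min, while CLN3 was at 0.72 and 0.63. Genes of other phases were not higher: the 14 G2 to M genes had medians of -0.50 and -0.74, the 9 core histone genes -0.51 and -0.30, and the 15 daughter and early G1 genes -0.70 and -0.51. At 24 min BY003 and BY012 were already at medians of -0.30 and -1.36 from BY008 for G2 to M genes and -0.57 and -0.80 for histone genes. The late medians of these lists thus lay within the spread of 24 min, unlike those of the daughter list (0.09 in BY003 and in BY012). Limma called 7 of the 15 daughter genes lower (4 with the block), among them the cell separation enzyme genes DSE4 (-1.17 and -0.70) and SCW11 (-0.97 and -0.63), and 0 of the histone and G2 to M genes (1 and 2 lower with the block). With the block DSE4 had an adjusted p of 0.054 and SCW11 of 0.071.

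**Figure D4:**
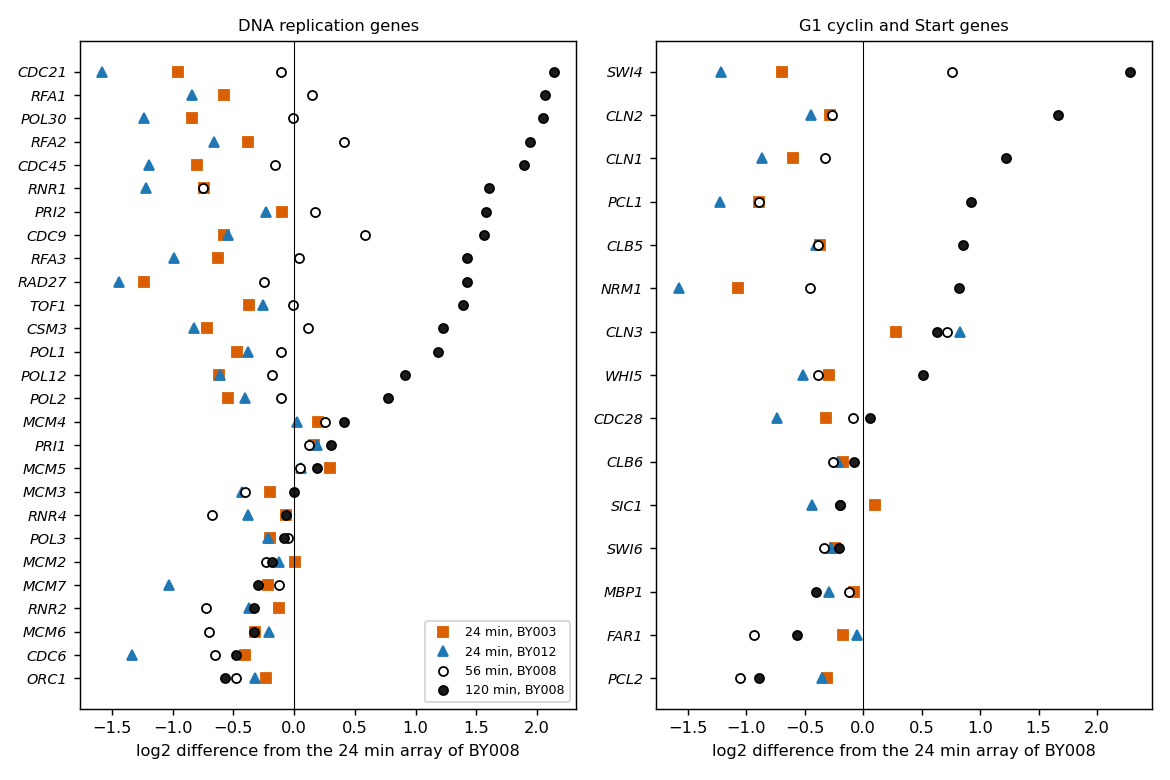
Log2 difference from the 24 min array of BY008 for the 27 DNA replication genes (left) and 15 G1 cyclin and Start genes (right), with the 24 min arrays of BY003 (squares) and BY012 (triangles), 56 min (open circles) and 120 min (filled circles). At 120 min CDC21 is at 2.14, POL30 at 2.05 and SWI4 at 2.28, while the MCM genes stay between -0.33 and 0.41.

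Genes that did not follow the common direction complete the picture. YPS3, for a cell-surface aspartic protease, was the 1 gene that had risen first and was higher still: it was at 11.22, 11.94 and 11.02 at 24 min, then 12.45 and 12.33, against 7.51 in the proline state (limma 1.0 ± 0.26, adjusted p = 0.023). Of the 273 genes higher late 26 had not moved first by the 2-fold measure. RTA1, for a membrane protein of the lipid exporter family, was at 8.84, 9.29 and 7.71, then 11.46 and 11.59, against 7.64 in the proline state, so the late values were above every earlier array (limma 2.91 ± 0.37, adjusted p = 0.002). Its relative RSB1 was higher by 1.78 and 2.23 (adjusted p = 0.073, and 0.016 with the block), and SED1, for a major cell wall protein, by 2.20 and 2.19; these 2 were named after their values were seen. INO1, for inositol phosphate synthase, was higher by 1.96 and 1.45 from 24 min arrays at 10.59, 11.58 and 9.76 (adjusted p = 0.095, and 0.022 with the block).

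Phosphate genes also split. PHO84, for the high-affinity phosphate transporter, was at 11.31, 11.26 and 12.58 at 24 min, at 10.93 at 56 min and at 9.0 at 120 min, so its drop came after 56 min (limma -1.75 ± 0.54, adjusted p = 0.043). The acid phosphatase gene PHO3 was lower by -1.05 and -2.15, while PHM8, for a nucleotide phosphatase, was higher by 1.27 and 1.51. Single genes with the largest moves between the late times were YJL047C-A (-0.03 and 2.86), YKR075C (0.57 and 3.0), RTG1 (-0.69 and 1.77) and YDR034C-A (-0.10 and 2.33) upward. Downward they were ANS1 (-0.71 and -3.91), ECM13 (-0.76 and -3.02), YJL107C (-0.30 and -2.35), YBL005W-A (-0.11 and -2.23, a probe set that may read several transcripts), SYF2 (0.59 and -1.42) and SMP1 (0.24 and -1.69). At 120 min alone these rest on 1 array. With the block ANS1 and ECM13 were called (adjusted p = 0.0068 and 0.0078, against 0.29 and 0.061 without it), and YBL005W-A and SMP1 were not (0.053 and 0.085, against 0.024 for both). The reference gene ACT1, for actin, was at 0.20 and 0.11.

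**Figure D5:**
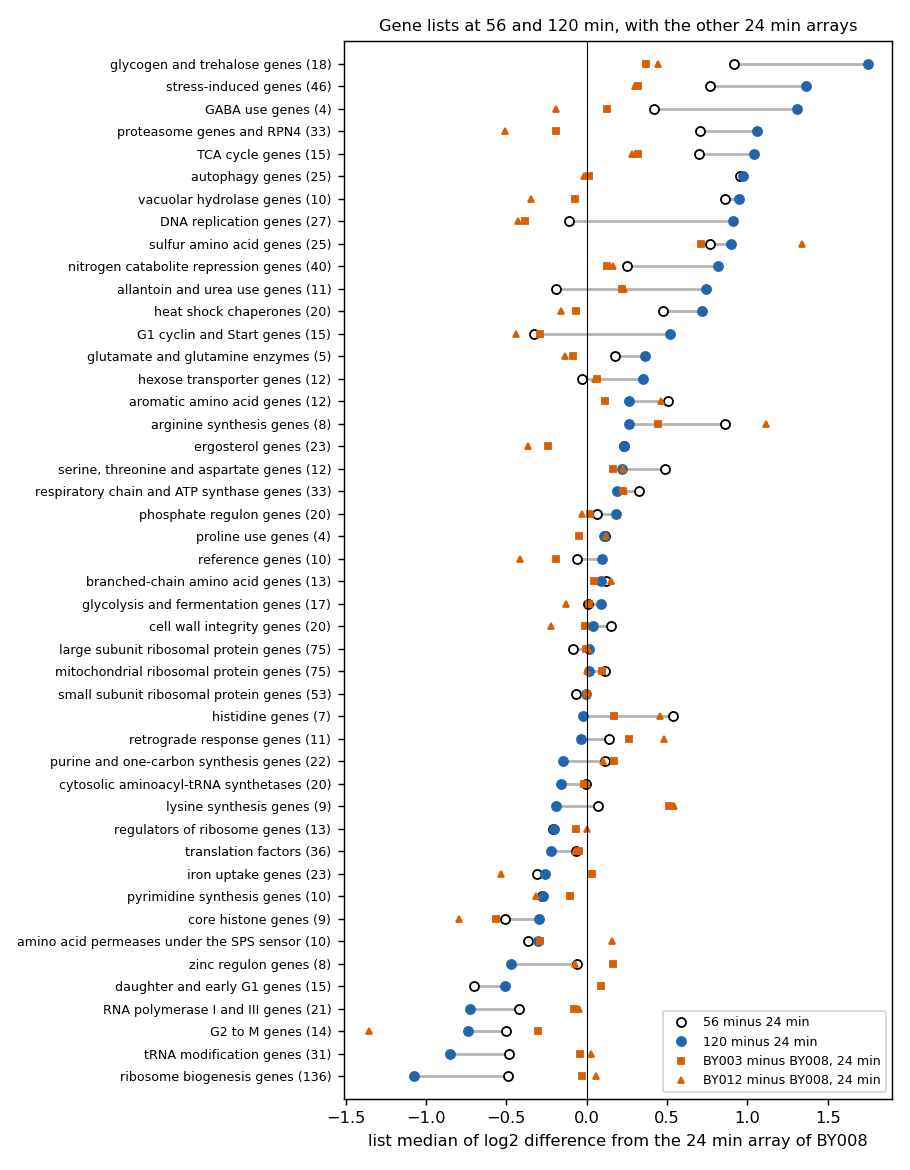
Median log2 difference from the 24 min array of BY008 for 46 gene lists (number of genes measured in brackets) at 56 min (open circles) and 120 min (filled circles), with the 24 min arrays of BY003 (squares) and BY012 (triangles) on the same scale. At 120 min glycogen and trehalose genes (1.75) and stress-induced genes (1.36) lie highest, at 56 min autophagy (0.95) and glycogen and trehalose genes (0.92), ribosome biogenesis genes (-0.49 and -1.07) lowest at 120 min, and the sulfur amino acid list lies within the span of its 24 min arrays.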

How the data were processed

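The authors deposited a matrix of intensity values on a linear scale for the Affymetrix Yeast Genome 2.0 arrays. Per the submitters' processing notes, R 2.10.0, affy and RMA were named, with no role or order. Log2 was taken of each deposited intensity, with no further scaling in the main results. Of 10928 probe sets, 5498 have a listed S. cerevisiae gene, 1747 one of the other yeast, 3470 no listed gene, and 213 are controls. The brightest probe set was kept for 47 genes with several, leaving 5449 genes, and 120 probe sets may read several transcripts. RefSeq names updated 12 symbols. The number of arrays limits the precision.

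Limma 3.58.1 in R 4.3.3 gave the tests (6 residual and 3.31 prior degrees of freedom, Benjamini-Hochberg over all genes), and its scripts were tested on simulated data. Error values are standard errors. Figures used matplotlib 3.10.9. Named genes are the 12 largest late differences each way among genes with a mean log2 value of at least 7, up to 4 members of each list past the late rule, the 10 largest first moves each way, the 6 largest differences from 56 to 120 min each way among the brighter genes, and 28 fixed genes, 116 in all. Examples come from these unless said otherwise. TSL1, HSP42, PRE8, IDH1, DSE4 and SCW11 are also not among them and were added outside this rule. The comparison, the genes and the 46 lists were chosen with earlier results of these data known.

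The replicate numbers are the experiment codes of the labels, which mark a shared experiment, so experiment is also given as a replicate block. Deviations from time means were correlated over genes for 3 pairs of times (-10 with 7 min, -10 with 24 min, 7 with 24 min). BY008 gave r = 0.63, 0.36 and 0.35, BY012 gave 0.56, 0.08 and 0.44, and BY003 gave 0.08, -0.05 and 0.21. A planned description of promoter motifs was not run, because no sequences were used here.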

Additional observations from a re-analysis of the deposited data

Results flagged for a closer look

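On the 120 min array 78 probe sets of the other yeast and 189 with no listed gene were at least 2-fold above every other array, where the other arrays had 0 to 3 and 0 to 11. The 90th percentile of the log2 values of the other yeast was 6.37 there, against 5.47 to 6.04 on the others.

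For 10 lists the median late difference had opposite signs at 56 and 120 min, and the difference between the times was not tested. The median at 120 min minus that at 56 min was 1.02 for DNA replication genes, 0.93 for allantoin and urea use genes, 0.84 for G1 cyclin and Start genes, 0.38 for hexose transporter genes, 0.15 for reference genes and 0.10 for large subunit ribosomal protein genes. It was -0.17 for retrograde response genes, -0.26 for purine and one-carbon synthesis genes, -0.26 for lysine synthesis genes and -0.56 for histidine genes. No group of this comparison has 4 or more arrays, so single arrays were not tested as outliers.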

How the results depend on the processing

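The late rule gave 273 genes higher and 46 lower, and other settings moved these counts as follows. Quantile normalization gave 164 and 85, array medians subtracted 70 lower, a 1.5-fold limit 687 and 268, a 4-fold limit 25 and 6, 56 min alone 71 lower, and 120 min alone 638 and 374. Without each other 24 min array in turn the counts were 277 to 288 and 46 to 49. Against the mean of the 3 arrays of 24 min, 222 of the 273 and 33 of the 46 were called again.

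The limma counts of 898 higher and 421 lower became 188 and 17 with 56 min alone and 357 and 105 at an adjusted p under 0.01. With array medians subtracted 642 were lower. With experiment as a replicate block they were 756 and 256, sharing 635 and 233 genes with the fit without it. Leaving out arrays gave 46 to 905 higher and 7 to 335 lower, lowest without the 3 arrays of BY003. Without the 24 min array of BY003 they were 623 and 229, and without that of BY012 560 and 217. Without the -10 min array of BY012, chosen after seeing the data, they were 1057 and 545. Fewer arrays go into these fits; other causes were not tested. Of the 72 named genes that limma called, 59 kept their call with the block, 14 without BY003 and 28 at 56 min alone, and none changed sign under any setting run.

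Genes that rose first and came down 2-fold numbered 27, or 52 with array medians subtracted and 61 with quantile normalization, and those that fell first and came back 253, or 143 with quantile normalization. Lists with medians at or below -0.5 at both times numbered 2, or 5 with array medians subtracted. Counts between 56 and 120 min stayed within 1.5 times. Promoter motifs were not run.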

Other observations

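Other lists gave values with few or no calls. Of the 75 mitochondrial ribosomal protein genes 1 was higher late, MRP8 (1.72 and 1.90), with 0 lower. Of the 33 respiratory chain and ATP synthase genes 0 passed the late rule. Limma called 2 of the 33 higher (6 with a replicate block), where 16.5% of all genes were called higher without the block. Of the 23 ergosterol genes, ERG9, for squalene synthase, was higher by 1.10 and 1.28 (limma 1.42 ± 0.26, adjusted p = 0.0069). Limma called 6 of the list higher, where 16.5% of all genes were (3 with the block, 0 without BY003). The arginine synthesis list had medians of 0.86 and 0.26, and its 24 min medians in BY003 and BY012 were 0.45 and 1.11 above BY008, so the late values lay within the 24 min spread. Of the 20 cell wall integrity genes GSC2, for a glucan synthase subunit, was higher by 1.58 and 1.52 (adjusted p = 0.18, and 0.0085 in the fit with a replicate block). URA10, for the minor orotate phosphoribosyltransferase, was higher by 1.16 and 1.25.

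Most late calls lie outside the lists: 49 of the 273 genes higher and 12 of the 46 lower belong to any list, where 1029 of 5449 genes do.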
